A study of Rattus norvegicus with 30 samples.

Results

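Melatonin, the hormone of darkness, is made in the pineal gland, and 10 genes known for pinealocytes were followed through 30 rat brain transcriptomes. They are Tph1, Ddc, Aanat and Asmt, which encode the enzymes that turn tryptophan into melatonin, the transcription factor genes Crx and Lhx4, and Aipl1, Gngt1, Sag and Gucy2d, which belong to the light response of photoreceptors. All 10 were found by symbol among the 17134 genes of the table. They were chosen by measured values, since earlier results of these data had shown Tph1, Asmt and Aipl1 to be high in a single library, so their levels there are given as a description with no test.

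The libraries came from male Sprague Dawley rats on a normal diet, 10 per group. WT rats express rat amylin, a hormone co-released with insulin. In HIP rats the pancreatic β-cells make human amylin besides rat amylin, and these rats develop type-2 diabetes, and AKO rats lack rat amylin. HIP and WT rats were 15 to 16 months old, and the age of these AKO rats is not given in the sources used here. Rats were kept on a 12 h light cycle, and the hour of tissue collection is not given in those sources either. The sample annotation names frontal cortex as the tissue, and the study names cerebral cortex in its methods and hippocampus in its results. Each library is 1 rat. Iapp, the amylin gene, is not analysed here, so the group labels were not checked against it.

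Pinealocytes descend from the same lineage as retinal photoreceptors and keep part of the photoreceptor program. Tryptophan hydroxylase 1 (Tph1) and aromatic L-amino acid decarboxylase (Ddc) make serotonin, which Aanat acetylates and Asmt methylates to melatonin. In the rat pineal gland, Aanat transcription climbs at night, when noradrenaline acting through β- and α1-adrenergic receptors raises cyclic AMP. Crx and Otx2 are homeodomain factors of pinealocytes and photoreceptors. The neocortex is not a site of melatonin synthesis, although serotonin and dopamine fibers reach it.

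The table holds normalized counts, which are read counts divided by a size factor of each library. Totals were 15.4 to 17.98 M (mega) per library, and the reads behind them were estimated at 12.9 to 23.6 M. The estimate rests on the value of 1 read, the step between the lowest values of a library. Library 10RT46 had 16.2 M estimated reads, near the median of 16.3 M of all 30, so its depth did not stand apart. WT rat 10RT43 did not match the annotated tissue. The mean log2(normalized count + 1) of a list of neocortex genes was 6.17 in it and 10.7 in 10RT46, and Gabra6, a receptor subunit of cerebellar granule cells, was 17979 normalized counts, against 1564 in HIP rat 12RT23 and 1.12 to 16.5 in 27 of the other libraries. In 10RT46, Gabra6 was 9.70.

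The promoters of 4 members are printed because each holds a short motif of the transcriptional control known for pinealocytes. The windows of 300 bases span the gene start, end 50 bases after it and are RefSeq sequences of the rat assembly GRCr8. Capitals mark TAATCC (read as GGATTA on the other strand), the core bound by Crx and Otx factors, and TGACGNCA (TGNCGTCA on the other strand), a cyclic AMP response element. The windows are Aanat at chr10:102326073-102326372 (+ strand), Asmt at chr12:21423287-21423586 (- strand), Crx at chr1:85681803-85682102 (- strand) and Aipl1 at chr10:57163406-57163705 (- strand), each written 5′ to 3′ along its gene.
Aanat: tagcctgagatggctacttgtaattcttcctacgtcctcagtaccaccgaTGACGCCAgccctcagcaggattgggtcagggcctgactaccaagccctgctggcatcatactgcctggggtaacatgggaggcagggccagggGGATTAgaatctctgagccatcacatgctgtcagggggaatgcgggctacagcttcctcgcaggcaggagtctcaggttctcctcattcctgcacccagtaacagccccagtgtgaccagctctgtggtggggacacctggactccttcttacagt
Asmt: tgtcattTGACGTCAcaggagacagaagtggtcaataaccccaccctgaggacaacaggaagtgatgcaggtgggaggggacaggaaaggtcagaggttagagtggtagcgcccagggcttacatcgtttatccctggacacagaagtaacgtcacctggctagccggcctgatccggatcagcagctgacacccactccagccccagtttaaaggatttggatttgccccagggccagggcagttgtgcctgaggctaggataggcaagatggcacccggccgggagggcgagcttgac
Crx: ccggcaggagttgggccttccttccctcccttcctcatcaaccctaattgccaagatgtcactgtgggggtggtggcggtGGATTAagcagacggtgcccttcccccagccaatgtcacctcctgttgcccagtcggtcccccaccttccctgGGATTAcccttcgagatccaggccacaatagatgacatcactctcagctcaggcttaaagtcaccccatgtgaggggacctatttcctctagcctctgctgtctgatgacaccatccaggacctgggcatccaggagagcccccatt
Aipl1: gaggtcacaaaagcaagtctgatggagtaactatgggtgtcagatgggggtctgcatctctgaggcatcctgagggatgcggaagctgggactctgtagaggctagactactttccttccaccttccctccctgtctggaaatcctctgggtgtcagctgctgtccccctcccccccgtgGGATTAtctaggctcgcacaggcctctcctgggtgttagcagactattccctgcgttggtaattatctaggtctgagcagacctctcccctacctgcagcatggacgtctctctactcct

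Of the 33469 windows of the RefSeq table, 7.17% held TAATCC on either strand. Among the 10 members, Crx, Gngt1, Aipl1 and Aanat held it. Counted from the gene start, the matches began at base -106 in Aanat, at -70 in Aipl1, at -220 in Gngt1, and at -170 and -97 in Crx. TGACGNCA was in 3.09% of windows, and among the members it was in Aanat from base -200 and in Asmt from base -243. The other 5 members held neither motif in these windows. The motifs do not overlap each other. A match describes the letters only, and no binding was measured in these rats.

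A single library, that of HIP rat 10RT46, had Tph1 above 100 normalized counts. Its value was 19081, and the next highest were 22.7 in WT rat 10RT43 and 13.2 in AKO rat 6AKO35. The choice of threshold made no difference, since the same single library was above 50 and above 500. All 10 genes had their highest value of the 30 libraries in 10RT46. Together they made up 0.162% of its total, against 0.000132% to 0.00171% in the other 29. Whether more pineal cells or more RNA per cell lies behind such a level cannot be told apart in bulk tissue.

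**Figure D1:**
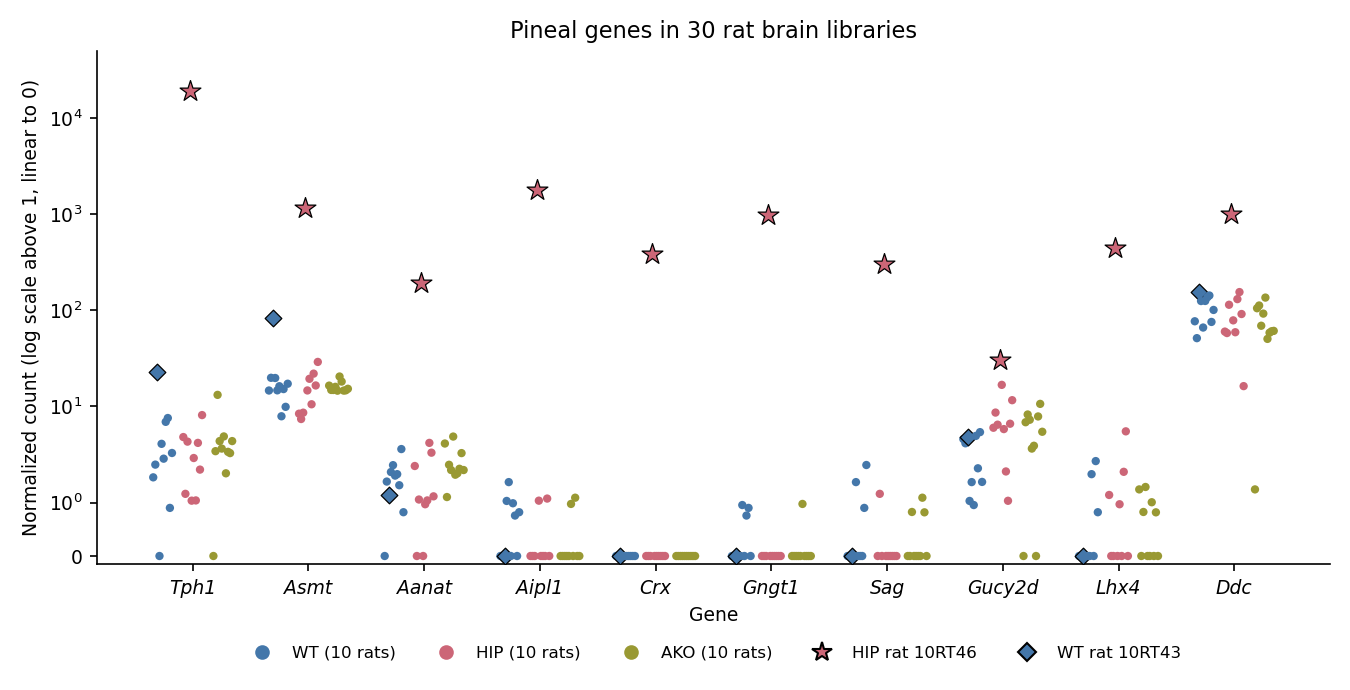
Normalized counts of the 10 genes (vertical axis, log scale above 1) in every library, colored by group, 10 rats each. HIP rat 10RT46 (star) is the highest library for every gene, with Tph1 at 19081, while WT rat 10RT43 (diamond) is the second highest for Tph1 and Asmt.

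Among the melatonin enzymes, Tph1 was 0 to 22.7 normalized counts in the other 29 libraries (median 3.37). The value in 10RT46 was 5660-fold the median and 840-fold the highest of these. Tph1 was at 0 in WT rat 10RT44 and AKO rat 4KAH27, and 14 of the 29 libraries exceeded 3 estimated reads. The gap between 10RT46 and the next library was the largest of any gene in the table (9.65 on the log2 scale).

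Asmt, which encodes the last enzyme of the pathway, was 1166 normalized counts in 10RT46. In the other 29 libraries it was 7.40 to 82.5 (median 15.2). Asmt differed from most members in that it was above 3 estimated reads in all 30 libraries. The highest of the others were again WT rat 10RT43, at 82.5, and HIP rat 12RT23, at 29.03, which are also the libraries with the highest Gabra6. The 27 libraries with Gabra6 up to 16.5 had Asmt of 7.40 to 21.9 (median 14.8). The part of cerebellar tissue in these Asmt values was not tested.

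Tph1 and Asmt did not keep a common ratio across libraries. In 10RT46, Tph1 was 16.4 times Asmt, whereas in the other 29 the ratio was 0 to 0.889 (median 0.222). In 10RT43, 1 of these 29, it was 0.275. In the 29 libraries the ratio rests on at most 19 estimated reads of Tph1. The plot of Tph1 against Asmt shows 10RT46 above and to the right of all the others.

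**Figure D2:**
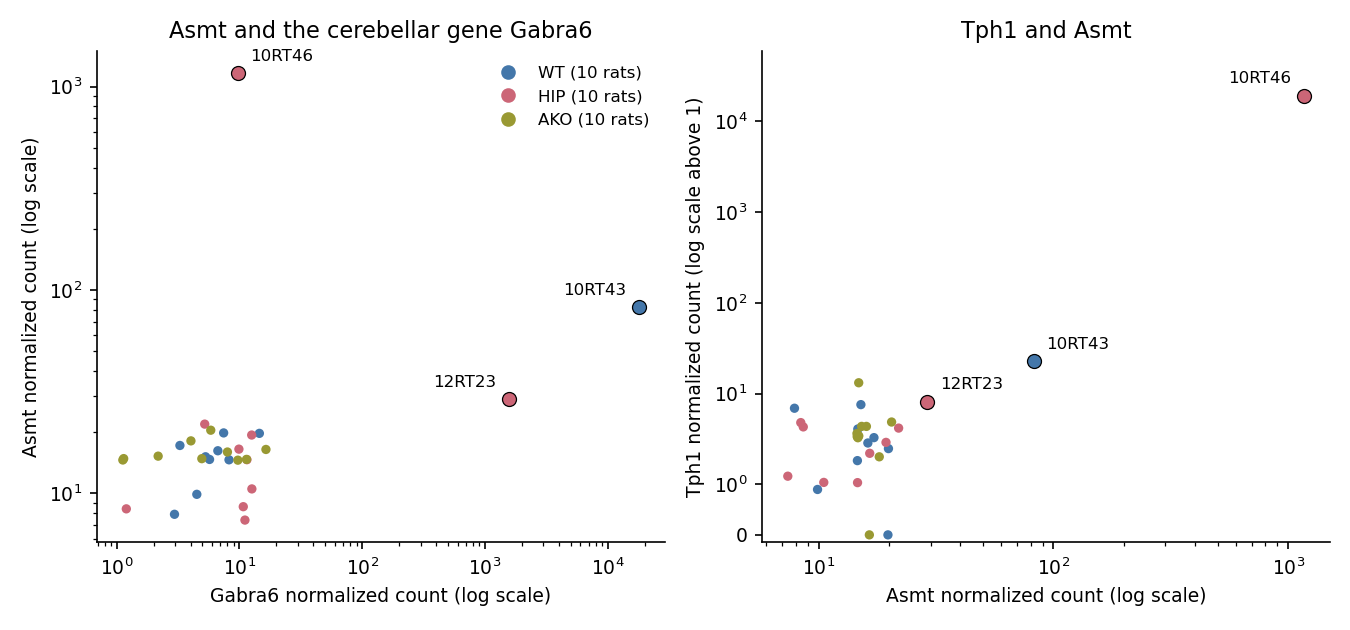
Left, Asmt against the cerebellar gene Gabra6, and right, Tph1 against Asmt, in normalized counts on log axes with 1 point per library. 10RT43 and 12RT23 combine the highest Gabra6 with Asmt of 82.5 and 29.03, and 10RT46 has Asmt of 1166 with Gabra6 of 9.70.

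Aanat, the enzyme that sets the nightly rhythm of melatonin, was 192 normalized counts in 10RT46, or 198 estimated reads. In the other 29 libraries it was 0 to 4.86 (median 1.98), and 4 of them exceeded 3 estimated reads. The value in 10RT46 was 39.5-fold the highest of these, in AKO rat 6KAH98. Aanat per Asmt was 0.165 in 10RT46 and 0 to 0.364 in the other libraries, so this ratio, unlike that of Tph1, was inside the range of the others. In the other libraries the ratio rests on at most 4 estimated reads of Aanat, so a shared ratio cannot be read from it.

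Ddc serves dopamine as well as serotonin synthesis, and it was above 3 estimated reads in 28 of the other 29 libraries. It was 1002 normalized counts in 10RT46 and 1.37 to 154.6 in the other 29 libraries (median 78.5). The 29 libraries together held 256% of the 10RT46 value of Ddc, against 0.655% for Tph1. AKO rat 4KAH27 (1.37) and HIP rat 12RT23 (16.3) were low, and the other 27 libraries lay between 50.4 and 154.6. Tyrosine hydroxylase (Th), the first enzyme of dopamine synthesis, was 469 to 723 in the 4 libraries with the most of it, in which the median of Ddc was 124. In the other 25 that median was 75.6, and the values of both sets overlapped. Th was 34.9 in 10RT46 and 8.37 to 723 in the others. In the RefSeq table, Ddc overlaps Fignl1 and a long non-coding RNA gene, and whether counting used the strand is not given in the sources used here.

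Crx and Lhx4 encode homeodomain factors. Crx was 381 normalized counts in 10RT46, or 393 estimated reads, and was at 0 in all 29 other libraries. Against a floor of 3 reads per library, which is at most 4.11 normalized counts, it was at least 92.7-fold higher in 10RT46. Crx is therefore the member without any background in these libraries.

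Lhx4, a LIM-homeodomain factor, was 441 normalized counts in 10RT46 and 0 to 5.51 in the other 29 libraries. It was at 0 in 17 of these. The highest, HIP rat 10RT54, was the only one above 3 estimated reads, and the value in 10RT46 was 80.1-fold higher. Lhx4 overlaps another gene model in the RefSeq table.

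The photoreceptor-like members had little or no background, with Gucy2d as the exception. Aipl1, a chaperone partner of the photoreceptor phosphodiesterase, was 1802 normalized counts in 10RT46. It was at 0 in 20 of the other libraries and at most 1.63 in the remainder, and all 29 together summed to 0.526% of the 10RT46 value. Gngt1, the transducin γ subunit, was 979 in 10RT46, at 0 in 25 libraries and at most 0.9746, which is 1 estimated read. Sag (S-antigen, arrestin 1), which ends the light response, was 300 in 10RT46, at 0 in 22 libraries and at most 2.46. For these 3 genes no library other than 10RT46 exceeded 3 estimated reads.

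Gucy2d, listed in RefSeq with the synonym RETGC-1, encodes the guanylate cyclase of photoreceptors. It was 30.1 normalized counts in 10RT46, or 31 estimated reads, and 0 to 16.8 in the other 29 (median 4.94). The highest of these, HIP rat 10RT48, was reached 1.79-fold. The other libraries together held 500% of the 10RT46 value. Gucy2d is thus the member for which 10RT46 stood apart least, and 19 of the 29 other libraries exceeded 3 estimated reads. Its gap of 0.81 on the log2 scale was rank 238 of all genes, while the ranks of the other 9 members were between 1 and 83.

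The next smallest gaps among the members were those of Ddc, at 2.69, and Asmt, at 3.81. Across the table, 66 of 17134 genes were more than 8-fold higher in 10RT46 than in any other library, and 8 of them were members. For this fold, 1 was added to each normalized count, here and wherever 8-fold is used. In 24 of the other 29 libraries no gene stood out this far. WT rat 10RT43 had 37 such genes and AKO rat 4KAH27 had 20, none of them a member.

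The 15 other genes with the pattern most like the members were ranked by the gap between 10RT46 and the highest of the other 29 libraries, on the log2(normalized count + 1) scale. Genes without a gene symbol, such as those named by an Ensembl identifier alone, were left out of this ranking. They were Rbp3 (9.08), Tulp1 (8.83), Pde6g (8.70), Prph2 (7.77), Guca1b (7.61), Guca1a (7.54), Pde6c (7.50), Miox (7.34), Isl2 (7.15), Lrit1 (7.09), Neurod4 (6.39), Cplx4 (6.15), Pdc (6.14), Cngb3 (6.01) and Impg2 (5.81). Of these, 9 are on the list of phototransduction genes. Rbp3, a retinoid-binding protein of the space around photoreceptors, was 1676 normalized counts in 10RT46 and at most 2.09 elsewhere. Miox, an inositol oxygenase not on that list, was 161 in 10RT46 and 0 in all 29 others. The promoter windows of 12 of the 15 were in the RefSeq table, and 5 of these held TAATCC.

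Of 36 phototransduction genes listed, 25 were in the table. In 10RT46, 19 of the 25 (76%) had their highest value, against 5.79% of all genes. Of the 25, 12 were more than 8-fold above every other library, as were 66 of all 17134 genes. The median gap of the list was 2.90 on the log2 scale and that of all genes -0.67. Genes known from cones were among those far above the other libraries. Pde6c, the catalytic subunit of the cone phosphodiesterase, was 559.5 normalized counts in 10RT46 and at most 2.09 elsewhere. Cngb3, a cone channel subunit, was 191 and at most 1.98. Gnat2, cone transducin α, was 389, and the highest of the others was 46.6 in AKO rat 4KAH27. Gnb3, a transducin β subunit, was 2322 and at most 80.1 elsewhere.

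Genes known from rods were divided. Gnat1, rod transducin α, was 8.73 normalized counts in 10RT46, within 1.65 to 17.2 of the other libraries. Pde6b, a catalytic subunit of the rod phosphodiesterase, was 48.5, against a median of 4.12 in the others, and was second highest after AKO rat 4KAH27 at 54.9. Nrl, the factor that directs rod fate, was 0.970, within 0 to 8.33. By contrast, Pde6g, the inhibitory subunit of the rod phosphodiesterase, was 4609 normalized counts, against 2.18 to 10.1. Cngb1, a rod channel subunit, was 584 and at most 28.5 elsewhere, and the members Gngt1 and Sag are also the rod forms of their proteins.

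**Figure D3:**
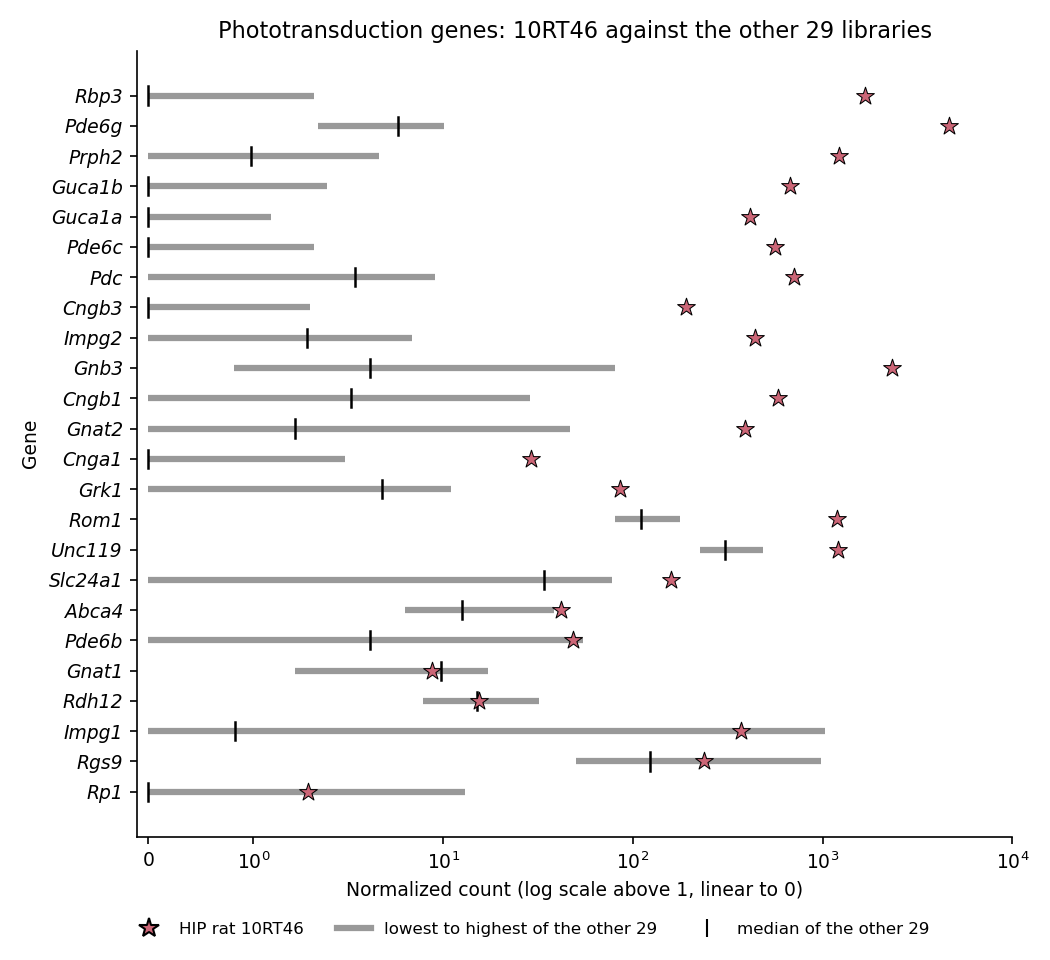
Normalized counts (horizontal axis, log scale above 1) of 24 phototransduction genes in HIP rat 10RT46 (star), with the range (gray bar) and median (black tick) of the other 29 libraries. Rbp3 and Pde6g lie farthest from the bar, while Gnat1, Rdh12, Impg1, Rgs9, Rp1 and Pde6b lie inside it. Of these, Impg1, Rp1 and Pde6b were second highest in 10RT46.

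Of 21 genes of pineal development and regulation, 19 were in the table. In 10RT46, 6 of them (31.6%) were highest, against 5.8% of all genes, and 3 of these by more than 8-fold. These 3 are developmental transcription factors. Otx2 was 743 normalized counts in 10RT46 and at most 40.6 elsewhere, Bsx 127 and at most 1.64, and Rax 18.4 and at most 0.824. Lhx9, Mitf and the α1-adrenergic receptor gene Adra1b were highest in 10RT46 by a smaller margin. Pax6, Neurod1, Rorb and Isl1, also transcription factor genes of this list, were inside the range of the other libraries. In 10RT46, Pax6 was 107.6, within 44.1 to 1262.8, and Neurod1 was 474, within 84.3 to 8642.5. Rorb was 84.4, below the median of 184.9 of the others, and Isl1 was 0.970, within 0 to 25.1.

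Other genes through which noradrenaline and cyclic AMP act in the pineal gland were inside the range of the other libraries. The β1-adrenergic receptor gene Adrb1 was 776 normalized counts, within 44.2 to 928 of the other libraries. Dio2, the thyroid hormone deiodinase, was 492, within 467 to 4076 and lower than in 28 of them. Per1 (741), Crem (233), Fosl2 (308) and Pde4b (685) were each inside their own range in the other libraries too. All of these were also expressed in the other 29 libraries, so that a pineal contribution to them cannot be told apart.

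Of 15 other genes of serotonin, melatonin and their cofactor, 11 were in the table. Gch1, the first enzyme of tetrahydrobiopterin synthesis, on which tryptophan hydroxylase depends, was 1879 normalized counts in 10RT46 and 9.004 to 83.7 in the others. Qdpr, which regenerates that cofactor, was 9467 and at most 7555 elsewhere. The other 9 were inside the range of the other libraries. Among them, Tph2, the neuronal tryptophan hydroxylase, was 18.4 in 10RT46 and 9.004 to 47.4 elsewhere.

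Markers of tissue next to the pineal gland were also examined in 10RT46. All 10 choroid plexus genes were in the table, and 9 were highest in 10RT46, against 5.8% of all genes, but none by more than 8-fold. Their sum was 17481 normalized counts, against 103 to 682.5 in WT rats, 113 to 469 in the other HIP rats and 156.7 to 4240 in AKO rats. Ttr, the transthyretin of choroid plexus epithelium, was 14881 in 10RT46 and 3445 in AKO rat 7AKO19, the next highest. In 7AKO19 the members were at background, with Tph1 at 2.02 normalized counts.

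Of the habenula list, the nicotinic receptor subunit genes Chrna3 and Chrnb4 were highest in 10RT46, Chrna3 at 687.5 and Chrnb4 at 389 normalized counts, with at most 42.9 and 28.7 elsewhere. The other 5 genes of that list in the table were inside the range of the other libraries. Of the motile cilia genes 2 of 9 were highest in 10RT46, of the meninges genes 1 of 9 and of the cerebellum genes 0 of 7. Of the neocortex genes 1 of 10 were, and of the blood and vessel genes 0 of 4, where 5.8% of all genes were. The motile cilia genes Ccdc153, Tmem212, Dnah9, Dnah12 and Cfap43 were second highest in 10RT46, after AKO rat 7AKO19. The mean log2(normalized count + 1) of that list was 5.72 in 10RT46, 5.90 in 7AKO19 and 5.03 in AKO rat 4KAH35, the next highest. The neocortex list summed to 40980 in 10RT46, to 42742 to 54910 in the other HIP rats, to 16843 to 49597 in WT rats and to 32072 to 56881 in AKO rats. Their part in the member values was not tested.

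**Figure D4:**
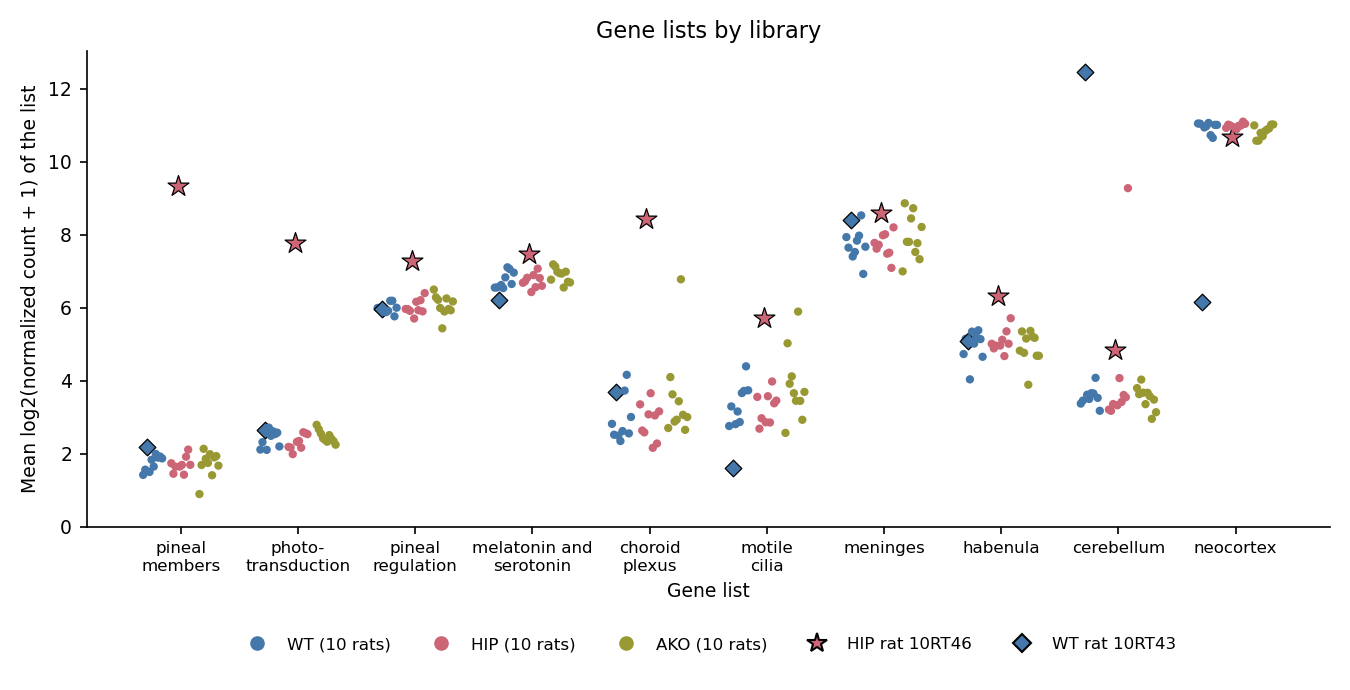
Mean log2(normalized count + 1) of each gene list (vertical axis) in every library, colored by group, 10 rats each. HIP rat 10RT46 (star) stands apart in the members (9.33), the phototransduction list (7.78) and the choroid plexus list (8.44), and WT rat 10RT43 (diamond) in the cerebellum (12.5) and neocortex (6.17) lists. By a smaller margin, 10RT46 is also highest in the pineal regulation (7.27), melatonin and serotonin (7.47) and habenula (6.33) lists.

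The libraries carry consecutive numbers in their annotation, which does not say what the numbers stand for. The library numbered just before 10RT46, that of AKO rat 7AKO19, had Tph1 of 2.02 normalized counts, and the one numbered just after it, that of WT rat 10RT47, had 2.86. Both are below the median of the 29 libraries.

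The groups were compared to ask whether these genes vary with human amylin or with loss of amylin. With 10RT46, the HIP mean of Tph1 was 1911 ± 6033 normalized counts (SD, n = 10), and without it 3.32 ± 2.32 (n = 9). WT rats had 5.26 ± 6.58 and AKO rats 4.25 ± 3.43 (n = 10 each). Asmt was 15.2 ± 7.32 in the 9 HIP rats, 21.8 ± 21.7 in WT and 15.99 ± 1.93 in AKO rats. Aanat was 1.57 ± 1.44, 1.72 ± 0.966 and 2.64 ± 1.12, and Ddc was 84.7 ± 42.7, 105.2 ± 35.8 and 74.6 ± 37.97 in the same order. The ranges of the groups overlapped for each of these genes.

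Values were compared as log2(normalized count + 1) by a two-sided limma test across all genes whose mean over the rats compared was 1 or more. On this scale the change of low genes is understated. The member values of 10RT46 had chosen the genes, so the HIP comparisons are read without that library. Aipl1, Crx, Gngt1, Sag and Lhx4 reached a mean of 1 through 10RT46 alone. They were not tested without it or in AKO vs. WT rats, and the other 5 members were.

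In HIP vs. WT rats without 10RT46, 1 of the 5 members tested, Gucy2d, had an unadjusted limma p-value under 0.05, where 4.58% of all genes did, and 0 had a Benjamini-Hochberg adjusted p-value under 0.05. With 10RT46 it was 1 of 10, where 2.57% of all genes had an unadjusted and 0% an adjusted p-value under 0.05. Nothing is read from that count, since 10RT46 chose the genes and brought 5 of them into the test. Without 10RT46, Gucy2d was 1.04 to 16.8 normalized counts in HIP rats (median 6.46, n = 9) and 0.954 to 5.40 in WT rats (median 3.20, n = 10). The ranges overlapped, and Gucy2d was 0.88 higher in HIP rats on the log2 scale (standard error 0.37, limma p = 0.0283, adjusted p = 0.891). These are values of few reads, and the difference did not pass the adjustment.

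For the other 4 members tested without 10RT46, HIP minus WT had unadjusted limma p-values of 0.187 to 0.68. The difference was -0.20 for Tph1 (95% interval -1.17 to 0.78), -0.31 for Asmt (-1.02 to 0.39), -0.19 for Aanat (-0.91 to 0.53) and -0.44 for Ddc (-1.12 to 0.23), in log2 units. Without WT rat 10RT43 as well, Tph1 was 0.07 and Asmt -0.07 (limma p = 0.855 and 0.783), so the direction of Tph1 rested on that rat. With 10RT46, Tph1 was 1.03 (standard error 1.22, limma p = 0.407), so that 1 library turned the sign for Tph1, Asmt and Aanat without giving a call.

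In AKO vs. WT rats, 0 of 5 members passed in limma, either unadjusted, where 9.34% of all genes did, or after adjustment, where 0.0997% did. The largest differences were -0.84 for Ddc (95% interval -1.91 to 0.22) and 0.46 for Aanat (-0.09 to 1.02). Without AKO rat 4KAH27, the library with 1.37 normalized counts of Ddc, the difference in Ddc was -0.34. 4KAH27 also had the fewest estimated reads (12.9 M), while WT rat 10RT43, with 12.91 M, had Ddc of 153.1. The part of depth in the Ddc value of 4KAH27 was not tested.

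In HIP vs. AKO rats without 10RT46, 0 of 5 members had an unadjusted limma p-value under 0.05, where 17.6% of all genes did. With 10RT46 it was 0 of 10, where 12.7% of all genes had an unadjusted and 0.17% an adjusted p-value under 0.05, and nothing is read from that count either. Aanat was nearest to the threshold, with a difference of -0.65 (95% interval -1.35 to 0.05, limma p = 0.0662, adjusted p = 0.313). This comparison shares its HIP rats with HIP vs. WT and its AKO rats with AKO vs. WT, and those comparisons share their WT rats.

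**Figure D5:**
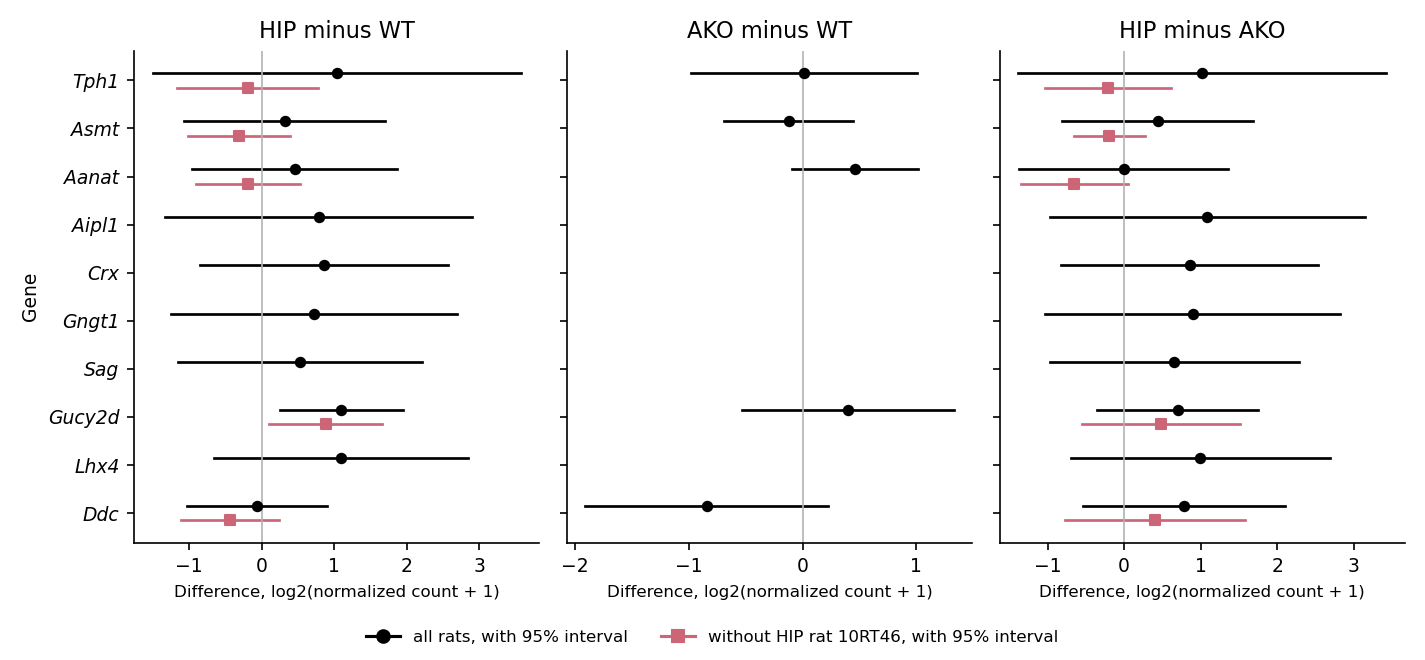
Differences of the members between groups on the log2(normalized count + 1) scale (horizontal axis) with 95% limma intervals, with all rats (circles) and without HIP rat 10RT46 (squares). Without 10RT46 the interval of Gucy2d in HIP minus WT, 0.10 to 1.66, is the only one that does not cross 0.

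Among the listed genes that are not members, 0 passed after adjustment in any of these comparisons (limma). Without 10RT46, unadjusted p-values under 0.05 were found for 3 of 100 in HIP vs. WT (4.58% of all genes) and 13 of 101 in HIP vs. AKO rats (17.6% of all genes). With all rats they were 4 of 109 (2.57% of all genes) and 9 of 109 (12.7%), and in AKO vs. WT rats 5 of 102 (9.34%). The smallest adjusted p-value among them was that of Slc18a1, a vesicular monoamine transporter. It was 15.7 to 45.3 normalized counts in AKO rats (median 21.2), 5.30 to 18.01 in WT rats (median 10.6) and 2.11 to 18.8 in HIP rats (median 11.8), n = 10 each. The AKO range overlapped the others only at its lower end. Slc18a1 was 1.23 higher in AKO than in WT rats on the log2 scale (standard error 0.25, limma p = 8.11e-05, adjusted p = 0.0623), and 1.27 lower in HIP than in AKO rats, a comparison with the same AKO rats (standard error 0.30, limma p = 0.000294, adjusted p = 0.0881). In 10RT46 it was 12.6.

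Ttr, the choroid plexus gene that was high in 10RT46, was 0 to 7.75 normalized counts in the other 9 HIP rats (median 0), 0.817 to 29.9 in WT rats (median 4.31) and 1.12 to 3445 in AKO rats (median 11.4). The ranges overlapped. Without 10RT46, Ttr differed by -1.52 between HIP and WT rats on the log2 scale (standard error 0.54, limma p = 0.0111, adjusted p = 0.891) and by -3.18 between HIP and AKO rats (standard error 0.95, limma p = 0.00307, adjusted p = 0.113). These fits left out the HIP library with the highest Ttr but kept the highest of the other groups, 7AKO19 (3445) and 10RT43 (29.9).

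In HIP vs. WT rats without 10RT46, where 4.58% of all genes had an unadjusted limma p-value under 0.05, 0 of 17 phototransduction genes did, 1 of 17 pineal regulation genes did and 0 of 11 serotonin and melatonin genes did. The median differences of these lists were -0.11, 0.08 and -0.05 on the log2 scale, and that of all genes was 0.00. The pineal regulation gene was Atp7b, a copper transporter (0.30, standard error 0.14, limma p = 0.0487, adjusted p = 0.891). In AKO vs. WT rats, where 9.34% of all genes did, the counts were 0 of 18, 0 of 17 and 2 of 11, the last being Slc18a1 and Qdpr.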

How the data were processed

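RNA from 30 rat brain samples was sequenced. The authors aligned the reads in Partek Flow to the rat genome rn7, assigned them to Ensembl105 genes and applied DESeq2 normalization. The submitters' processing notes name Partek 10.0.22.0228, STAR 2.7.8a and Bowtie2. The deposited values are this normalized signal per gene, called normalized counts here. They are not whole numbers: 80.6% to 84.0% of values below 100 were whole multiples of 1 step per library (tolerance 0.02 reads). Whole reads were not recovered and no count test was run. Estimated reads are values divided by the step and cover counting error only. The groups were those of the sample annotation. Groups were compared on log2(normalized count + 1) in limma 3.58.1 (trended eBayes, two-sided), for genes with a mean of at least 1, with Benjamini-Hochberg adjustment over all tested genes. The fit was checked on simulated data. Replicates are separate rats. Members and gene lists were chosen with earlier results of these data known. All members were named, with the listed genes of phototransduction, pineal regulation and serotonin or melatonin by their values. The 15 other genes with the largest gap among those with a gene symbol were named too. A phototransduction gene of the list is counted but not reported here. Where a gene outside this rule is named, it was chosen after its values were seen. Symbols and promoter windows were matched in RefSeq tables of GRCr8, from which no gene coordinates were taken for the measurements. Alternatives were each rat left out, sample-quality weights, a joint fit of all 30 rats, quantile normalization, robust eBayes, pseudocounts 0.1 or 5, rescaling by median ratios, a minimum mean of 10 and no minimum. Leaving out 10RT46 and 10RT43 together was added after the data were seen.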

Additional observations from a re-analysis of the deposited data

Results flagged for a closer look

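Values that stood apart from the other 9 rats of their group were found in 13 of 28 groups of 10 rats examined. Their number is not set against chance, which alone gives about 1 in 20, because most of them are the values that chose the genes. HIP rat 10RT46 accounts for 9 of them, with Tph1 at 19081.1 normalized counts, Asmt at 1166.5, Aanat at 192, Aipl1 at 1801.6, Crx at 381.1, Gngt1 at 979.4, Sag at 299.6, Lhx4 at 441.2 and Ddc at 1001.7. The nearest other HIP value was 8.13 for Tph1, 29.03 for Asmt and 154.6 for Ddc. Gucy2d in this rat, at 30.06, was the highest of the HIP rats (next 16.76) but was not among the values flagged. WT rat 10RT43 stood apart in Tph1 (22.72, next WT rat 7.58) and Asmt (82.51, next WT rat 19.9). AKO rat 6AKO35 stood apart in Tph1 (13.19, next AKO rat 4.87). AKO rat 6KAH99 stood apart in Gngt1, with 0.9746 normalized counts or 1 estimated read where the other 9 AKO rats were at 0, so that any single read would stand apart.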

How the results depend on the processing

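10RT46 is 1 rat, and no second library shows its pattern. Apart from single rats left out, 220 member values kept their direction and side of the threshold under the alternatives and 20 reversed, none of them a called value. These counts include HIP fits with 10RT46, whose values chose the genes, so nothing is read from these counts. Sample-quality weights gave HIP vs. WT differences of -0.071 for Aanat, -0.03 for Aipl1, -0.061 for Asmt, -0.02 for Gngt1 and -0.091 for Sag, 0.048 for Asmt in AKO vs. WT, and -0.107 for Asmt and -0.001 for Tph1 in HIP vs. AKO. Without 10RT46, HIP vs. WT was -0.188 for Aanat, -0.313 for Asmt and -0.196 for Tph1, and HIP vs. AKO was -0.193 for Asmt and -0.209 for Tph1. Without 10RT46 and 10RT43, HIP vs. WT was -0.211 for Aanat and -0.07 for Asmt, and AKO vs. WT was 0.123 for Asmt. A pseudocount of 5 gave -0.041 for Tph1 in AKO vs. WT and 0.26 for Aanat in HIP vs. AKO, and quantile normalization -0.11 and 0.156. The cause was not tested. Genes with an unadjusted p-value under 0.05 in HIP vs. WT were 439, and 885 with weights, 779 without 10RT46 and 817 without both rats. In AKO vs. WT they were 1594, and 3930 with weights, and adjusted calls were 17, and 27 with all 30 rats and 857 with weights. In HIP vs. AKO they were 2179 and 4289, and adjusted calls 29, and 56, 1143 and 70 with all 30 rats, with weights and without 10RT46. With 1 rat left out, unadjusted genes in HIP vs. WT were 309 to 779 (without 10RT46), adjusted calls 10 (without 10RT38) to 39 (without 4KAH27) in AKO vs. WT and 17 (without 10RT53) to 70 (without 10RT46) in HIP vs. AKO. Differences in HIP vs. WT were -0.188 to 0.656 for Aanat, -0.313 to 0.56 for Asmt, -0.443 to 0.209 for Ddc and -0.196 to 1.304 for Tph1. In AKO vs. WT they were -0.236 to 0.123 for Asmt and -0.223 to 0.284 for Tph1, and in HIP vs. AKO -0.65 to 0.193 for Aanat, -0.193 to 0.598 for Asmt and -0.209 to 1.256 for Tph1. Aanat in AKO vs. WT passed an unadjusted 0.05 only without WT rat 10RT55 (0.557). No paired analysis was possible because the annotation gives no replicate numbers that the groups share. Depth limits the members at 0 to 3 reads.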
